A study of Rattus norvegicus with 78 samples.

Results

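The acrosome and egg-binding genes described here are 10 genes whose products sit in the sperm head and act when the sperm meets the egg: Crisp2, Zpbp, Zpbp2, Acr, Acrbp, Acrv1, Spaca1, Spam1, Prss21 and Ace. They were taken by symbol from the platform annotation, which named a probe set for 9 of the 10, and each of the 9 had 1 probe set among the 29214 of the array. Spaca1 was not analysed here. The RNA came from sperm let out of the cauda epididymis of Fischer 344 rats, and 78 samples with an array each fell into 4 groups. The corn oil group (20 arrays) was given the vehicle alone and the DBCP group (20 arrays) 5 mg/kg/day of 1,2-dibromo-3-chloropropane, a nematode fumigant that is toxic to male germ cells, for 3 months, and neither had a recovery period. The corn oil recovery group (19 arrays) and the DBCP recovery group (19 arrays) had the same treatments followed by a recovery period, and the sources used here do not give its length or the ages of the rats. The labels call the arrays of a group biological replicates without saying how they map to rats, so the spread between them is the spread between these samples. Values are log2 probe set values as deposited, differences are log2 differences with their standard error (SE), and a gene was said to rise or fall where its limma p-value was under 0.05 after Benjamini-Hochberg adjustment across the 29214 probe sets.

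The acrosome is a secretory vesicle that spermatids build from the Golgi apparatus and spread as a cap over the nucleus. When the sperm reaches the egg coat, the zona pellucida, the acrosome fuses with the plasma membrane and releases proteases and binding proteins. Transcription stops as the spermatid nucleus condenses, so the RNA of a mature sperm is a remnant of what the spermatid made.

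The 9 genes fall into 3 sets by role. Among the matrix proteins and proteases, Acr encodes proacrosin, the serine protease of the acrosome, and Acrbp the protein that binds proacrosin and holds it in the granule. Acrv1 encodes SP-10, a protein of the acrosomal matrix. Zpbp and Zpbp2 encode paired matrix proteins that bind the zona pellucida and are needed for a normal acrosome in mice. The second set acts at the sperm surface: Spam1 encodes the hyaluronidase PH-20, which is held by a lipid anchor and helps sperm through the cumulus, and Prss21 encodes testisin, a lipid-anchored serine protease. The third set holds Crisp2, a cysteine-rich secretory protein of the acrosome and tail that takes part in gamete fusion, and Ace, the angiotensin-converting enzyme. Spermatids make a short testis form of Ace from a start site inside the gene, which mice need for fertility. The sources used here do not say whether the probe set reads the testis form, the longer form of other tissues or both.

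The promoters of Crisp2, Acr and Acrbp are shown because these 3 genes fell over time in DBCP rats and were high on the same arrays. The upstream window of Ace is left out because the testis form starts elsewhere in the gene. The windows hold the 250 bases before the RefSeq transcript start on the plus strand of GRCr8, at chr9:27604004-27604253 for Crisp2, chr7:122517684-122517933 for Acr and chr4:159537149-159537398 for Acrbp, 5' to 3'. All 9 genes had a RefSeq entry. Capitals mark matches to any of 3 short motifs on either strand: the core of the cyclic AMP response element (TGACGT or ACGTCA), the GC box (GGGCGG or CCGCCC) and the TATA box (TATAAA or TTTATA).
Crisp2: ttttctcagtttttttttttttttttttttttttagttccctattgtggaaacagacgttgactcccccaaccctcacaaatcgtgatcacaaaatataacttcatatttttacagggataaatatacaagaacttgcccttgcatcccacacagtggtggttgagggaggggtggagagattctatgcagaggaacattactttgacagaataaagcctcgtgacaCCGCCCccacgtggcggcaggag
Acr: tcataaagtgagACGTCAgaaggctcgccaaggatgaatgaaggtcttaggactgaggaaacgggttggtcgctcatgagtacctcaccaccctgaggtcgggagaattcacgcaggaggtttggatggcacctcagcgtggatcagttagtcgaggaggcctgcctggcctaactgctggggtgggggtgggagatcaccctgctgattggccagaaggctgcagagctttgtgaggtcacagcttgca
Acrbp: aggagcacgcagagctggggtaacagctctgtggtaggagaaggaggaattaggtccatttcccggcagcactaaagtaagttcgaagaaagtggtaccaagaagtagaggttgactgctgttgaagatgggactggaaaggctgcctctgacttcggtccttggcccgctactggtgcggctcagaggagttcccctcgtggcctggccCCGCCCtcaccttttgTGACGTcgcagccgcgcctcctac
Acrbp held both a GC box that begins 40 bases before the start and a cyclic AMP element core that begins 24 bases before it. Crisp2 held a GC box 23 bases before the start, and Acr a cyclic AMP element core 238 bases before it. Among 27457 RefSeq promoters of the same length, 7.25% held the cyclic AMP element core, 32.4% the GC box and 13.1% the TATA box. These are letter matches and were not tested as binding sites.

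The deposited arrays had medians between 6.55 and 6.75. The limma array weight was under 0.5 on 6 arrays: DBCP replicates 2, 13 and 20, DBCP recovery replicates 7 and 15, and corn oil recovery replicate 11. DBCP replicate 13 gave the highest DBCP value for 8 of the 9 genes and replicate 2 was among the highest 3 for 6 of them. Values without these arrays are given for the exposure differences and for the closest relations between genes. The falls over time in DBCP rats, a comparison that holds most of these arrays, are given in size only with them included. Against the labelled cell type, the late spermatid list of 18 genes (protamines, transition proteins, tail and energy genes) had mean levels of 9.22 to 11.49 over the 78 arrays, while the leukocyte list of 29 genes had 7.57 to 8.79. Leukocyte markers lay above the array medians: Ptprc, the pan-leukocyte phosphatase CD45, averaged 8.11 to 8.86 by group, and Cd74, the class II invariant chain, 10.89 to 11.87. Amh of Sertoli cells (6.58 to 6.66) and Insl3 of Leydig cells (6.77 to 6.82) averaged close to the array medians.

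By its mean over all arrays, the Crisp2 probe set (10922027) stood at 10.76, above 99.0% of all probe sets. The probe sets of Zpbp (10778472), Ace (10739035) and Acr (10898647) stood at 8.58, 8.09 and 7.90, above 94.0%, 90.5% and 88.3% of probe sets. Those of Acrbp (10858763) and Prss21 (10940587) stood at 7.16 and 7.09. Acrv1 (10909017) at 6.24, Spam1 (10854017) at 5.91 and Zpbp2 (10738015) at 5.63 lay below the lowest array median, where a log2 difference can understate a change. Probe sets differ in their response, so these levels do not rank the genes by transcript number.

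**Figure D1:**
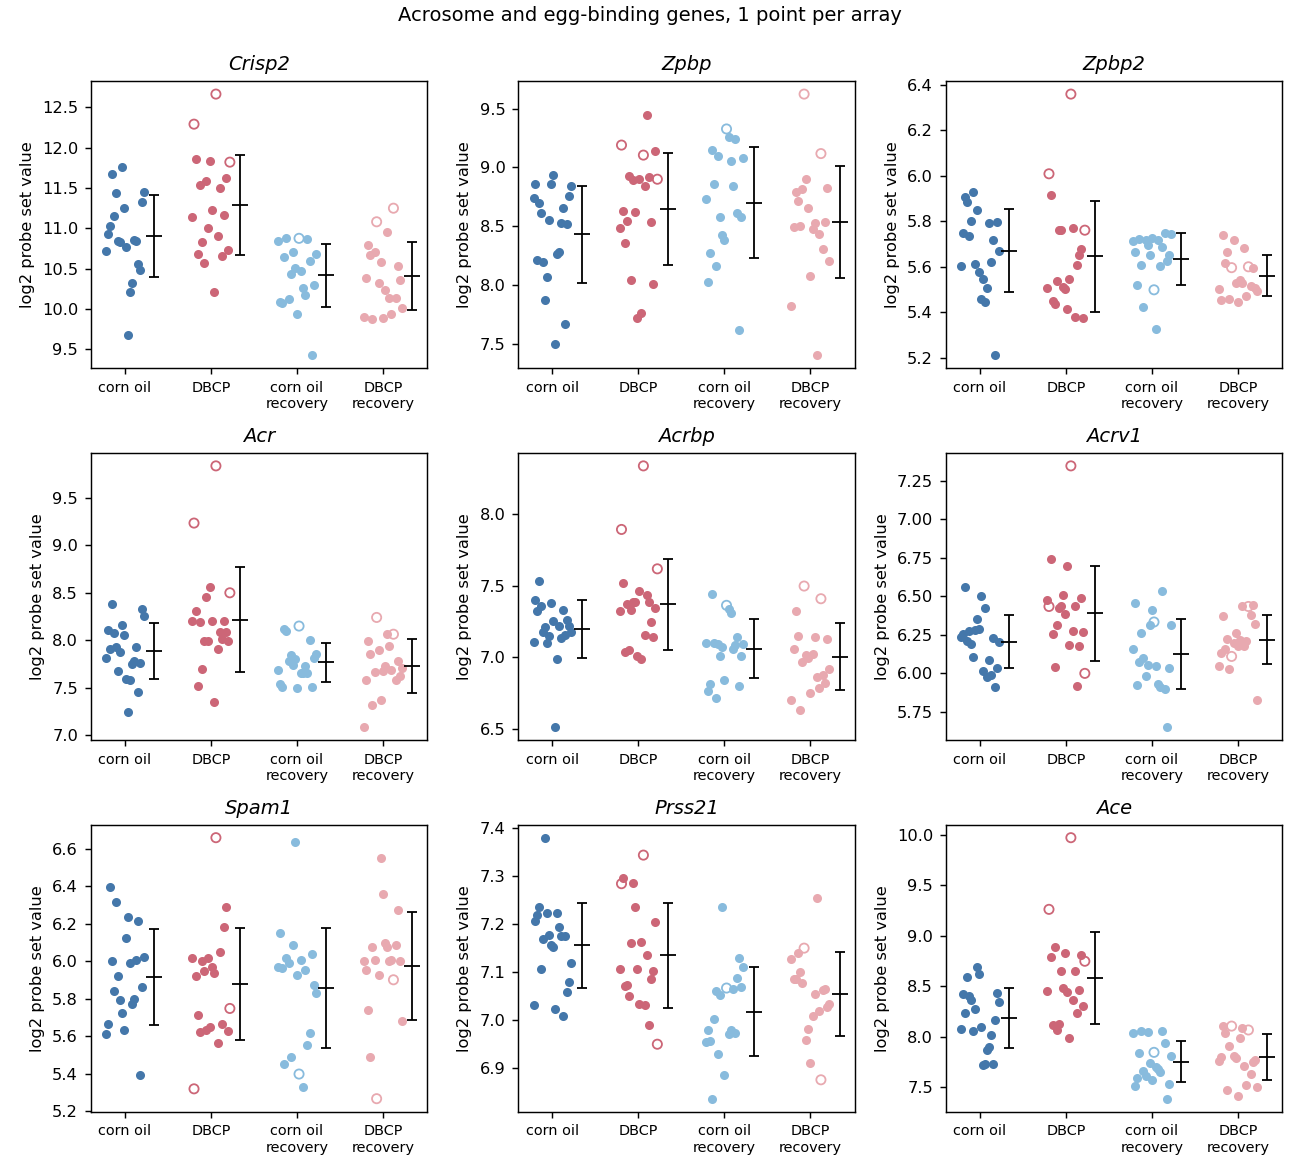
Log2 probe set value of each of the 9 genes, 1 point per array, in the 4 groups, with the mean ± SD in black; open circles are the 6 arrays with a limma weight under 0.5. For Ace, 14 of 19 DBCP recovery arrays lie below all 20 DBCP arrays, and DBCP replicate 13 is the highest point at 9.97.

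The first comparison asked whether DBCP changed these transcripts at the end of exposure. None of them passed: 0 of 9 genes rose or fell with limma, where 0% of the 29214 probe sets were called, although 3386 probe sets (11.6%) had an unadjusted p under 0.05, as did 5 of the 9 genes. Of the 9 differences, 6 were above 0 and 3 below, with a median of 0.18 against -0.02 over all probe sets.

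Ace had the smallest p of the 9. On corn oil arrays it ran from 7.72 to 8.69 with a median of 8.20, and on DBCP arrays from 7.99 to 9.97 with a median of 8.47. The ranges overlapped, with 7 DBCP arrays above every corn oil array and 5 corn oil arrays below every DBCP array. The difference was 0.40 ± 0.10 (95% interval 0.20 to 0.59, limma adjusted p = 0.120), and 16 of 20 DBCP arrays lay above the corn oil mean. Crisp2 ran from 9.67 to 11.76 (median 10.85) on corn oil and from 10.21 to 12.67 (median 11.19) on DBCP arrays. Its groups overlapped too, with 5 DBCP arrays above every corn oil array, and the difference was 0.39 ± 0.15 (limma adjusted p = 0.289), with 14 of 20 DBCP arrays above the mean of the corn oil group.

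Acr ran from 7.25 to 8.38 (median 7.90) on corn oil and from 7.35 to 9.84 (median 8.14) on DBCP arrays. Most of this range was shared, with 5 DBCP arrays above every corn oil array. The difference of 0.33 ± 0.11 did not pass (limma adjusted p = 0.200), although 17 of 20 DBCP arrays exceeded the mean of the corn oil group. Its partner Acrbp ran from 6.51 to 7.53 (median 7.21) and from 6.99 to 8.34 (median 7.36), a difference of 0.17 ± 0.08. The matrix gene Acrv1 had 0.18 ± 0.07 and the zona-binding gene Zpbp 0.22 ± 0.14 (limma adjusted p = 0.269 and 0.534).

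The surface genes and Zpbp2 showed differences near 0. Spam1 had -0.04 ± 0.09, Prss21 -0.02 ± 0.03 and Zpbp2 -0.02 ± 0.05, which became 0.013 for Zpbp2 under quantile normalization. The 95% intervals of these 3 genes reached from -0.22 to 0.14 for Spam1, from -0.09 to 0.04 for Prss21 and from -0.13 to 0.08 for Zpbp2.

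The exposure differences depended on a few arrays. Without the 6 arrays of low weight, the difference of Ace was 0.26 (limma adjusted p = 0.929), that of Crisp2 0.22, that of Acr 0.16 and that of Acrbp 0.07. Acrv1 had 0.15 and Zpbp 0.14 without them. The 2 ranges of replicate numbers in the labels also differed: Ace had 0.19 over numbers 1 to 10 and 0.60 over numbers 11 to 20, and Crisp2 had 0.17 and 0.60. The corn oil arrays carried most of that gap, with an Ace mean of 8.37 ± 0.22 (SD, n = 10) for numbers 1 to 10 and 8.00 ± 0.26 (SD, n = 10) for numbers 11 to 20. The sources used here do not say what these number ranges stand for.

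Alongside, the late spermatid list lay on the positive side and the leukocyte and erythrocyte lists on the negative side, with 0 members of the 3 passing. The late spermatid list had all 18 members above 0 at the end of exposure, with a median of 0.37, where 38% of all probe sets lay above 0. The leukocyte list had 26 of 29 members below 0, with a median of -0.09. Its level per array ran from 7.72 to 8.40 on corn oil and from 7.57 to 8.23 on DBCP arrays. The erythrocyte list had 8 of 8 members below 0, with a median of -0.11, and its level ran from 7.45 to 8.24 on corn oil and from 7.37 to 7.96 on DBCP arrays. With the leukocyte level as a covariate, Ace had 0.41 (limma adjusted p = 0.00814) and Acr 0.36 (limma adjusted p = 0.0301), in a fit in which 3163 of the 29214 probe sets passed. In RNA from a mixed pellet, fewer cells of a type and less RNA per cell cannot be told apart.

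Between the recovery groups, DBCP against corn oil also called 0 of the 9 genes with limma. There 0% of probe sets were called, and 1084 (3.71%) were under 0.05 before adjustment, as were 0 of the 9 genes. The differences reached from -0.16 ± 0.15 for Zpbp to 0.12 ± 0.09 for Spam1, with a median of -0.01 against 0.01 over all probe sets. Ace ran from 7.39 to 8.06 (median 7.70) on corn oil recovery and from 7.41 to 8.11 (median 7.79) on DBCP recovery arrays. Crisp2 ran from 9.43 to 10.88 (median 10.47) and from 9.87 to 11.25 (median 10.36). Both genes had groups that lay almost on top of each other, with differences of 0.05 ± 0.10 for Ace (95% interval -0.15 to 0.25) and -0.01 ± 0.16 for Crisp2 (-0.32 to 0.30). Acr had -0.04 ± 0.11, Acrbp -0.06 ± 0.08, Acrv1 0.09 ± 0.07, Zpbp2 -0.07 ± 0.06 and Prss21 0.04 ± 0.03. The smallest limma adjusted p among the 9 was 0.983. The leukocyte list had 24 of 29 members below 0, with a median of -0.16, and the erythrocyte list 6 of 8, with a median of -0.08. Of all probe sets 57.9% lay above 0 there, and 0 members of either list passed.

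The interaction, the DBCP difference after recovery minus that at the end of exposure, tested whether the response itself differed between the 2 times. It called 0 of the 9 genes, with 0% of probe sets called by limma. Before adjustment 3170 probe sets (10.9%) were under 0.05, as were 3 of the 9 genes. Crisp2 had -0.39 ± 0.22, Zpbp -0.38 ± 0.20, Acr -0.37 ± 0.16, Ace -0.34 ± 0.14 and Acrbp -0.23 ± 0.11. The limma adjusted p of these 5 genes lay between 0.454 and 0.463. A change of the DBCP response between the times was thus not shown for any of them.

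**Figure D2:**
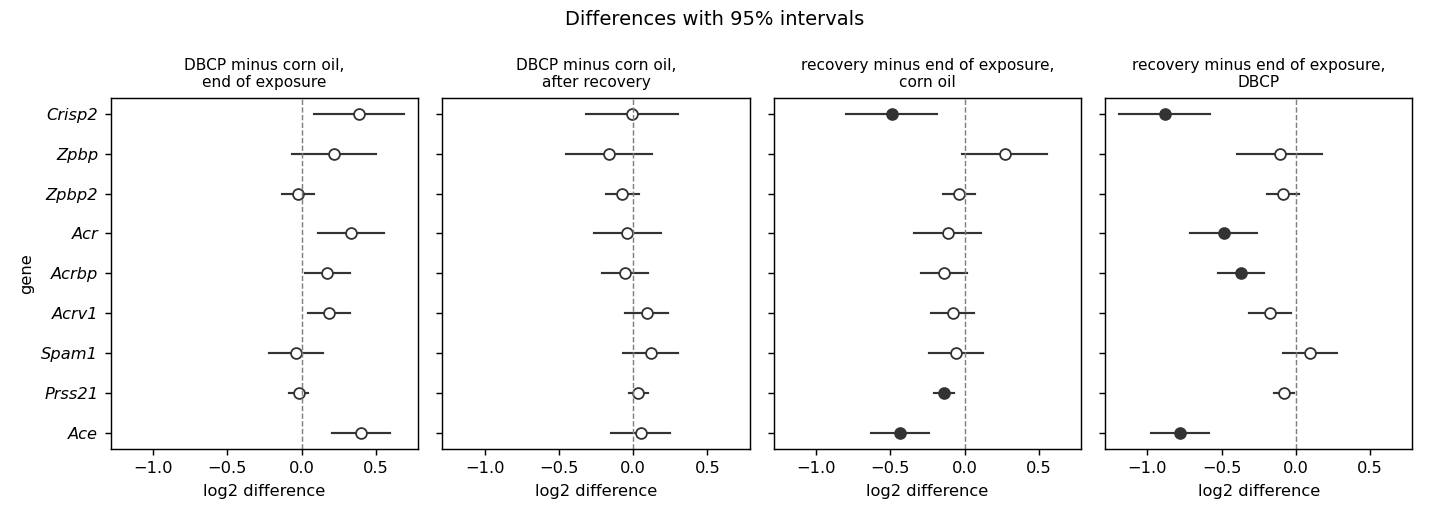
Log2 difference of each of the 9 genes with its 95% interval in 4 comparisons; filled points have a limma adjusted p under 0.05. No gene is filled in the 2 comparisons of DBCP with corn oil, and 3 and 4 are filled, all below 0, in the comparisons over time.

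The comparison of corn oil rats over time, which holds no DBCP, gave calls. Ace, Crisp2 and Prss21 were lower in the recovery group: 3 of 9 genes fell and 0 rose, where 24.3% of all probe sets were called, 11.5% higher and 12.8% lower. The split of those calls was 3370 higher and 3738 lower, and 3850 and 2218 with each array centred on its median, where the same count of 3 genes passed. Ace fell from a median of 8.20 (7.72 to 8.69) to 7.70 (7.39 to 8.06). The groups overlapped, but 10 of 19 recovery arrays lay below all 20 earlier arrays and 13 earlier arrays lay above all recovery arrays. The difference was -0.44 ± 0.10 (limma adjusted p = 0.000876, 1.35-fold lower), and 19 of 19 recovery arrays were below the earlier mean.

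Crisp2 fell from a median of 10.85 (9.67 to 11.76) to 10.47 (9.43 to 10.88), a difference of -0.49 ± 0.15 (limma adjusted p = 0.0154). All 19 recovery arrays were below the earlier mean, and 9 of the 20 earlier arrays lay above every recovery array. Prss21, the testisin gene, ran from 7.01 to 7.38 (median 7.17) and then from 6.84 to 7.23 (median 7.00). Its fall was small but regular, at -0.14 ± 0.03 (limma adjusted p = 0.00152), with 18 of 19 recovery arrays below the earlier mean and 10 below every earlier array.

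The other 6 genes did not pass in corn oil rats. Zpbp had 0.27 ± 0.14 (limma adjusted p = 0.157), the only difference above 0. Acrbp had -0.14 ± 0.08, Acr -0.11 ± 0.11, Acrv1 -0.08 ± 0.07, Spam1 -0.06 ± 0.09 and Zpbp2 -0.04 ± 0.05. Without the 6 low-weight arrays Acrbp also fell, by 0.16 on the log2 scale (limma adjusted p = 0.0497). Over replicate numbers 11 to 20 alone 0 of the 9 genes passed, and there Ace had -0.27, Crisp2 -0.24 and Prss21 -0.07 (limma adjusted p = 0.313, 0.570 and 0.417).

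In DBCP rats the comparison over time called 4 of 9 genes, all lower after recovery, where 13.5% of probe sets were called, 7.28% higher and 6.19% lower. Ace, Crisp2, Acr and Acrbp fell and 0 rose. Ace fell from a median of 8.47 (7.99 to 9.97) to 7.79 (7.41 to 8.11). Only 5 of the 19 recovery arrays reached into the range of the earlier ones, and 18 of 20 earlier arrays lay above every recovery array. The difference of -0.78 ± 0.10 (limma adjusted p = 3.66e-08, 1.72-fold lower) ranked 12 by p among the 29214 probe sets. Crisp2 fell from a median of 11.19 (10.21 to 12.67) to 10.36 (9.87 to 11.25), by -0.88 ± 0.15 (limma adjusted p = 1.88e-05, 1.84-fold lower). For both genes 19 of 19 recovery arrays lay below the earlier mean, while the ranges of the 2 times overlapped.

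The proacrosin pair fell together. Acr went from a median of 8.14 (7.35 to 9.84) to 7.71 (7.09 to 8.24), a difference of -0.49 ± 0.11 (limma adjusted p = 0.00129) with 18 of 19 recovery arrays below the earlier mean. Acrbp went from 7.36 (6.99 to 8.34) to 7.00 (6.63 to 7.50), a difference of -0.37 ± 0.08 (limma adjusted p = 0.000396) with 17 of 19 below. The ranges overlapped for both, and 9 recovery arrays lay below every earlier array for Acrbp against 2 for Acr. Over replicate numbers 11 to 20 alone, Acr had -0.42 and Acrbp -0.42, and neither passed (limma adjusted p = 0.246 and 0.0533).

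Acrv1 had -0.17 ± 0.07, Prss21 -0.08 ± 0.03, Zpbp -0.11 ± 0.14, Zpbp2 -0.09 ± 0.05 and Spam1 0.10 ± 0.09 in DBCP rats, and these 5 genes did not pass. Their limma adjusted p ran from 0.0877 for Prss21 to 0.663 for Zpbp. Prss21 passed when DBCP replicate 20 or DBCP recovery replicate 13 was left out (limma adjusted p = 0.0456 and 0.0419). The 2 comparisons over time share their groups with the comparisons of DBCP and corn oil, so their values are set side by side and are not separate evidence. Recovery cannot be told apart from age or time of collection.

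By group mean, Ace stood in the order DBCP 8.58 ± 0.46, corn oil 8.19 ± 0.30, DBCP recovery 7.80 ± 0.23 and corn oil recovery 7.75 ± 0.20 (SD). Crisp2 had the order DBCP 11.29 ± 0.62, corn oil 10.90 ± 0.51, corn oil recovery 10.42 ± 0.39 and DBCP recovery 10.41 ± 0.42 (SD). For both genes the 2 recovery groups were closer than the SD of either, and neither these neighbours nor DBCP and corn oil differed by limma's test. Corn oil and corn oil recovery differed for Crisp2 by the test over time, while corn oil against DBCP recovery was not tested for Ace. Acr (8.22, 7.88, 7.77 and 7.73) and Acrbp (7.37, 7.20, 7.06 and 7.00) went in the order DBCP, corn oil, corn oil recovery and DBCP recovery. Prss21 had corn oil 7.16, DBCP 7.14, DBCP recovery 7.05 and corn oil recovery 7.02.

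Other acrosome genes gave the setting for these counts, in 4 lists that leave out the 9 and were chosen with earlier results known. At the end of exposure, after recovery and in the interaction, 0 genes of any of the 4 lists passed limma's test. The counts over time stand against the 24.3% of all probe sets called in corn oil and the 13.5% called in DBCP rats. Over time in corn oil rats, 1 of 19 other matrix and enzyme genes rose and 4 fell, with a list median of -0.08. Acp3, an acid phosphatase, rose by 0.38 ± 0.11, while Spesp1 of the equatorial segment had -0.29 ± 0.10 and the lysozyme-like Lyzl6 -0.20 ± 0.06. Over time in DBCP rats, 5 of the 19 fell and 0 rose. They were led by the testis serine protease Prss37 with -0.80 ± 0.15, Prss58 with -0.51 ± 0.12 and Spaca9 with -0.47 ± 0.11.

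Among 14 other genes of egg binding and fusion, 3 fell and 0 rose in corn oil rats, and 5 fell and 0 rose in DBCP rats, against 12.8% and 6.19% of all probe sets called lower. Spa17, a zona-binding protein of sperm, fell in both, by -0.77 ± 0.17 in corn oil and -1.17 ± 0.17 in DBCP rats (limma adjusted p = 3.6e-07). In corn oil rats Crisp1, a protein that the epididymis adds to sperm, had -0.43 ± 0.16 and Pkdrej, a sperm surface receptor, -0.14 ± 0.05. Crisp1 is also in the list of epididymal principal cell markers, so its fall is counted in both lists. In DBCP rats Clgn and Pdilt, endoplasmic reticulum chaperones that ready surface proteins for zona binding in mice, had -0.46 ± 0.11 and -0.25 ± 0.08.

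Among 17 genes that build the acrosome, 2 rose and 2 fell in corn oil rats, and 1 rose and 4 fell in DBCP rats, against 24.3% and 13.5% of all probe sets called. Garin1a fell in both, by -0.74 ± 0.15 and -1.22 ± 0.15 (limma adjusted p = 9.25e-09 in DBCP rats). In DBCP rats Garin1b had -0.42 ± 0.09 and Actl7b -0.23 ± 0.05. Csnk2a2, a casein kinase subunit that mice need for a normal sperm head, rose in corn oil rats by 0.29 ± 0.11. Vps54, a Golgi tethering protein, rose in corn oil rats by 0.18 ± 0.05. Among 14 genes of acrosomal exocytosis, 3 rose and 4 fell in corn oil rats, and 1 rose and 2 fell in DBCP rats, against the same shares. Plcz1, the sperm phospholipase that starts the calcium waves of the egg, had -0.41 ± 0.13 and -0.61 ± 0.13. Napa (0.31 ± 0.10) and Vamp2 (0.28 ± 0.08), parts of the membrane fusion machinery of all cells, rose in corn oil rats, and the fusion protein Snap25 (0.23 ± 0.06) rose in DBCP rats.

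**Figure D3:**
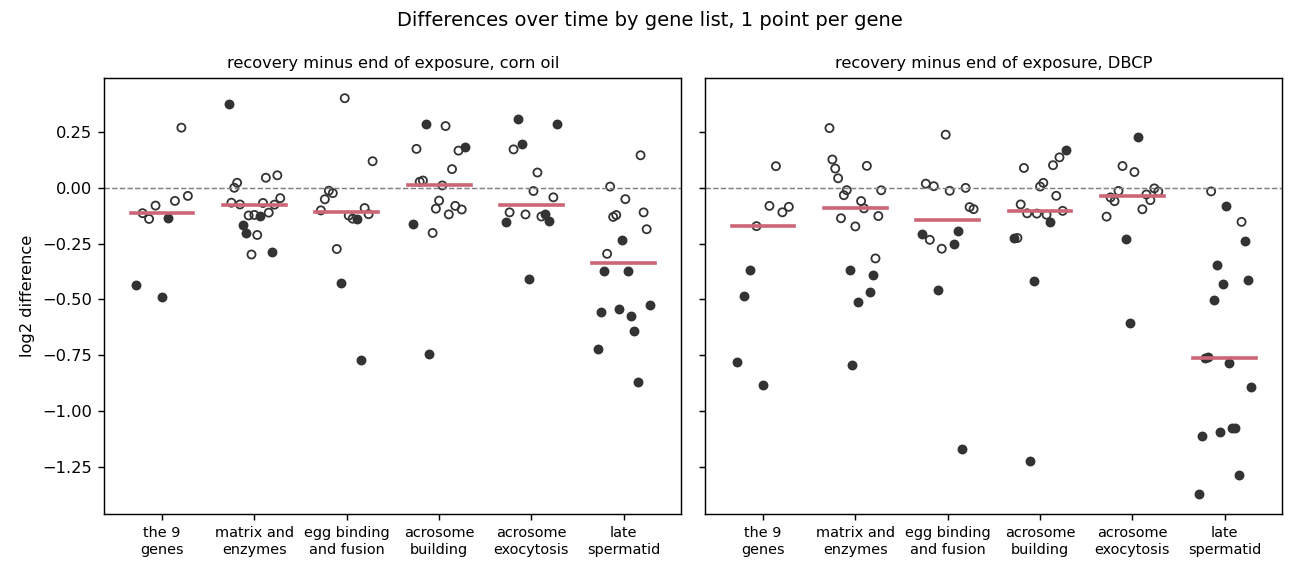
Log2 difference over time, 1 point per gene, for the 9 genes, the 4 lists of other acrosome genes and the late spermatid list, in corn oil (left) and DBCP rats (right); filled points have a limma adjusted p under 0.05 and the red line is the list median. The late spermatid list has the lowest medians, -0.34 and -0.76, against -0.11 and -0.17 for the 9 genes.

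Late spermatid genes outside the acrosome moved the same way. The list counts over time stand against the share of all probe sets called. The lists were chosen with earlier results of these data known, so these counts only describe them. That share was 24.3% in corn oil rats (11.5% higher, 12.8% lower) and 13.5% in DBCP rats (7.28% higher, 6.19% lower). In corn oil rats 10 of 18 fell and 0 rose over time, with a median of -0.34 against -0.04 over all probe sets. In DBCP rats 16 of 18 fell and 0 rose, with a median of -0.76 against 0.01. The transition protein gene Tnp1 had -0.87 ± 0.22 and -1.29 ± 0.22, and Akap4 of the tail sheath -0.72 ± 0.19 and -1.37 ± 0.19. Leukocyte markers went the other way: 17 of 29 rose and 1 fell in each treatment, with medians of 0.32 in corn oil and 0.31 in DBCP rats. The leukocyte level per array ran from 7.72 to 8.40 on corn oil and from 8.00 to 8.79 on corn oil recovery arrays, and from 7.57 to 8.23 on DBCP and 7.91 to 8.52 on DBCP recovery arrays. Of 10 somatic testis markers, 3 fell and 0 rose in corn oil rats, and 2 fell and 0 rose in DBCP rats. In corn oil rats 10 of 10 lay below 0, with a median of -0.11, where 38.4% of all probe sets lay above 0. Of 8 markers of epididymal basal and clear cells, 3 rose and 1 fell in corn oil and 0 passed in DBCP rats. Principal cell markers had 1 of 16 higher and 3 lower in corn oil and 2 lower in DBCP rats, stromal markers 1 of 13 higher and 2 lower in corn oil and 2 higher in DBCP rats, and erythrocyte markers 1 of 8 lower in corn oil and 0 in DBCP rats. The part of these cell types in the falls of the acrosome genes was not tested. The leukocyte level was itself higher after recovery, so a fit with it as a covariate cannot separate leukocyte level from recovery. In corn oil rats that fit called 731 of the 29214 probe sets, against 7108 without the covariate. Ace passed there with -0.48 (limma adjusted p = 0.0196). Crisp2 (-0.52, limma adjusted p = 0.106) and Prss21 (-0.06, limma adjusted p = 0.418) did not. In DBCP rats the fit called 7471 of the 29214 probe sets, against 3933 without the covariate. Ace (-0.82), Crisp2 (-0.91), Acr (-0.58) and Acrbp (-0.47) were among them. So were Zpbp, which fell by 0.42 (limma adjusted p = 0.0311), and Spam1, which rose by 0.31 (limma adjusted p = 0.00980).

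**Figure D4:**
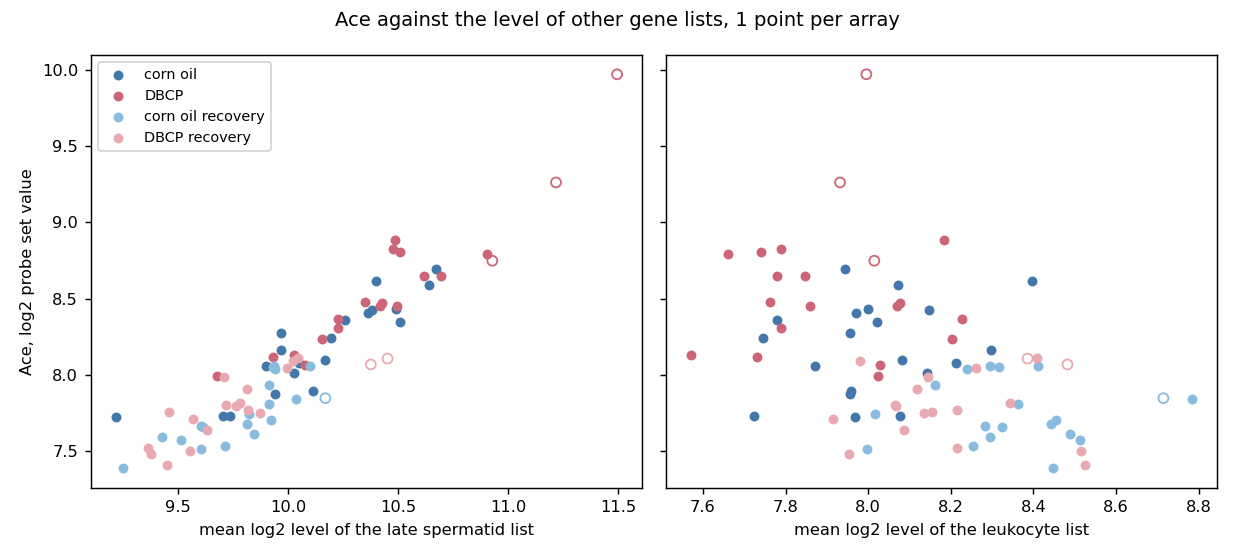
Log2 value of Ace on each of the 78 arrays against the mean level of the late spermatid list (left) and of the leukocyte list (right), coloured by group; open circles are the 6 low-weight arrays. Within groups Ace went with the late spermatid level (Pearson r = 0.882) and not with the leukocyte level (r = 0.080).

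To see how the genes varied among themselves, the values were set against each other across the 78 arrays after subtraction of the group means, in 36 pairs. By a permutation test, two-sided and adjusted for the 36 pairs by Benjamini-Hochberg, 25 passed, 24 of them positive, and the median Pearson r was 0.37. Pairs of other probe sets were not tested, so whether this count is particular to these genes is not known. Crisp2 and Ace were the closest pair, with r = 0.897 and Spearman rho = 0.897 (permutation p = 1e-05, the smallest that 100000 resamples can give, adjusted p = 3.6e-05). Their r was 0.899 without the 2 arrays farthest from the median of Crisp2, 0.893 without the 6 low-weight arrays, and between 0.866 and 0.944 within each of the 4 groups. Acr went with Ace (r = 0.830, rho = 0.731) and with Crisp2 (r = 0.813, rho = 0.782), and Acrbp with Acr (r = 0.766, rho = 0.591), with the same permutation p of 1e-05 each. Without the 2 farthest arrays these 3 values were 0.728, 0.782 and 0.647, and without the low-weight arrays 0.713, 0.755 and 0.581. Arrays high in Crisp2 were thus mostly high in Ace, Acr and Acrbp of the same group.

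No relation was shown between the paired zona-binding genes Zpbp and Zpbp2, with r = 0.072 and rho = 0.087 (permutation p = 0.530 and 0.451). Their r was 0.248 under quantile normalization and -0.047 without the low-weight arrays. Zpbp2 had a low mean of 5.63, where a relation can be missed. Zpbp went with Acrbp (r = 0.679, rho = 0.707, permutation p = 1e-05), with r of 0.587 to 0.850 within the groups. Spam1 went against Zpbp (r = -0.383, rho = -0.394, adjusted permutation p = 0.00136 for r), the negative pair among those that passed by Pearson r. That r was -0.395 without the 2 farthest arrays. By Spearman rho Spam1 also went against Acrbp (rho = -0.317, adjusted permutation p = 0.0105) and Acr (rho = -0.279, adjusted permutation p = 0.0270). It went with Acrv1 (rho = 0.270, adjusted permutation p = 0.0304). Several weaker relations rested on few arrays: that of Acr with Acrv1 was r = 0.384 over all arrays (rho = 0.204) and 0.144 without the 2 farthest, and the median r over the 36 pairs was 0.21 without the low-weight arrays. Some that passed differed by group. Acrv1 with Prss21 passed at r = 0.269, with 0.670 in DBCP and 0.361 in corn oil. In corn oil recovery and DBCP recovery it had -0.120 and -0.247.

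**Figure D5:**
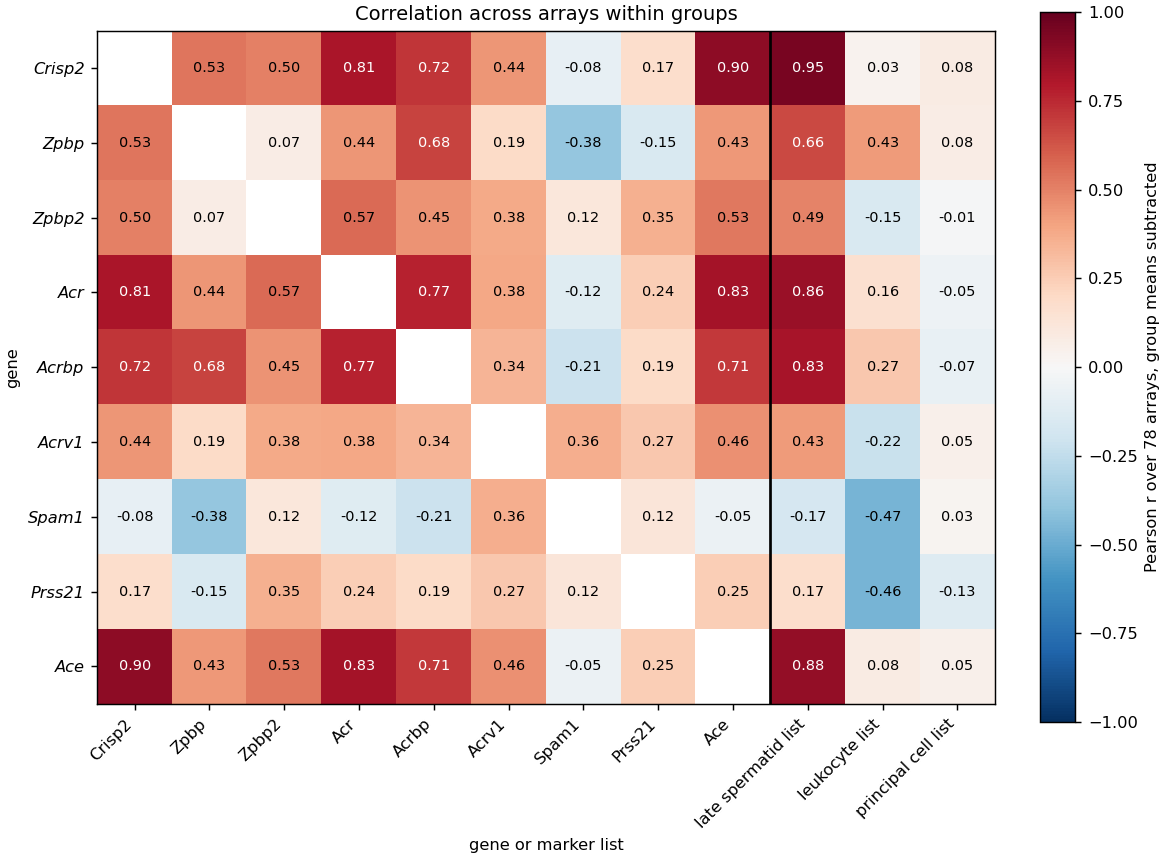
Pearson r of each of the 9 genes with the others and with the mean levels of 3 marker lists over the 78 arrays, group means subtracted, from -1 (blue) to 1 (red). Crisp2, Acr, Acrbp and Ace form a block of values from 0.71 to 0.90, and the late spermatid column reaches 0.95 for Crisp2.

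The same measure was taken against the levels of the late spermatid, leukocyte and epididymal principal cell lists, in 27 pairs of which 11 passed, 9 of them positive. Crisp2 went with the late spermatid level at r = 0.949 (rho = 0.940), Ace at 0.882 (rho = 0.877), Acr at 0.862 (rho = 0.806) and Acrbp at 0.828 (rho = 0.756), each with a permutation p of 1e-05. Leaving out the 2 farthest arrays gave 0.937, 0.859, 0.838 and 0.771. Zpbp (r = 0.657, rho = 0.648), Zpbp2 (0.493 and 0.407) and Acrv1 (0.428 and 0.375) also passed with the late spermatid level. Without the 2 farthest arrays their r was 0.651, 0.394 and 0.264. Spam1 (r = -0.169, rho = -0.197, permutation p = 0.141) and Prss21 (r = 0.174, rho = 0.111, permutation p = 0.125) did not pass with it. Against the leukocyte level these surface genes had r = -0.466 (rho = -0.416) for Spam1 and -0.464 (rho = -0.426) for Prss21, and -0.474 and -0.423 without the 2 farthest arrays. Zpbp had 0.425 (rho = 0.452, 0.431 without the 2 farthest), and no gene passed with the principal cell level. Acrbp also passed with the leukocyte level by r (0.266, adjusted permutation p = 0.0441) but not by rho (0.249, adjusted permutation p = 0.0685). The part of sperm amount, RNA quality or other cells in these relations was not tested.

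Of all other named genes, the 5 whose pattern over the 78 arrays was most like the mean of the 9, each standardised after subtraction of group means, were Adam3a (r = 0.909), Reep2 (0.908), Agbl5 (0.904), Mael (0.903) and Actl11 (0.903). Adam3a encodes a sperm surface protein of zona binding. Without the 6 low-weight arrays their r ran from 0.821 for Reep2 to 0.899 for Adam3a.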

How the data were processed

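The authors deposited log2 values, 1 for each probe set and array. Limma is the tool that the submitters' processing notes name. The sources used here do not give the background correction, the scaling or the summary over probes. By the labels' protocols, sperm were pelleted from punctured cauda epididymides and treated with a lysis buffer, and a kit split the RNA into large and small fractions.

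No value was rescaled. The annotation gave 1 symbol to 15310 of the 29214 probe sets, several to 323 and none to 13581. Genes entered by their probe set of highest mean over all 78 arrays. A group means model over all arrays was fitted by lmFit and eBayes of limma 3.58.1 (R 4.3.3), with 5 contrasts and Benjamini-Hochberg adjustment over all probe sets at 0.05. It was tested on simulated data first. Groups came from the treatment and recovery labels. Correlations across arrays used values with group means subtracted and 100000 resamples over all 78 arrays, not within groups (numpy 2.4.6, SciPy 1.17.1). The number of arrays limits the precision.

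All 9 genes on the array are named. Of the other lists, at most the 3 genes of largest absolute difference among those passing are named. The members and the lists were chosen with earlier results of these data known, and the correlations with marker lists were added after the data were seen. Alternatives were quantile normalization, median centring, filters on probe sets, array weights, other variance priors and tests, fits on part of the arrays, blocks on replicate numbers, marker levels as covariates, a threshold of 0.10 and leaving out each array.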

Additional observations from a re-analysis of the deposited data

How the results depend on the processing

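The number of genes passing among the 9 (0 at the end of exposure, 0 after recovery, 0 in the interaction, 3 over time in corn oil and 4 in DBCP rats) stayed within 1.5 times under quantile normalization, median centring, the probe set filters, array weights, the trended robust prior, the groups of a contrast alone, the plain t statistic, a threshold of 0.10, numbers 1 to 10 alone and fits without low-weight arrays. These settings called 3 or 4 genes over time in corn oil and 4 to 6 in DBCP rats. The filter on probe sets above the median level kept 6 of the 9. Leaving out each array in turn gave 3 to 3 and 4 to 5 genes over time and 0 elsewhere, while over the whole table the end of exposure gave at most 14 called probe sets (without DBCP replicate 12). Of the 36 pairs of genes, 28 passed under quantile normalization (27 positive) and 19 without low-weight arrays (17 positive), against 25 (24 positive).

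Over replicate numbers 11 to 20 alone, 0 genes passed over time in corn oil and 2 in DBCP rats. With the leukocyte level as covariate, 2 passed at the end of exposure and 1 over time in corn oil rats. With leukocyte and erythrocyte levels as covariates, 1 passed in each of these. The cause of these shifts was not tested. In corn oil rats over time, Ace had -0.61 and Crisp2 -0.74 over numbers 1 to 10, against -0.27 and -0.24 over numbers 11 to 20. The replicate block gave the counts 0, 0, 0, 3 and 4 and changed no call. Its correlation was -0.015, and same-numbered arrays of corn oil and DBCP deviated together (r over 0.1) in 9 of 20 pairs, so the numbers were not taken to pair the samples. Over the whole table, the 0 calls at the end of exposure became 1 with probe sets of 1 symbol or 1 per gene, 3163 with the leukocyte covariate and 799 with both. The 7108 calls over time in corn oil rats became 385 over numbers 11 to 20, 731 and 706 with the covariates. The 3933 in DBCP rats became 505, 7471 and 8031. The filter on probe sets above the median level called 2375 there, but it tested only 14607 probe sets. Its count therefore cannot be read as a loss of calls against the 3933 of the whole table.

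Differences that did not pass turned sign as follows, and the cause was not tested. At the end of exposure, Zpbp2 became 0.013 under quantile normalization and 0.077 over numbers 11 to 20, where Spam1 became 0.028. In the interaction, Zpbp2 became 0.011 with array weights, 0.0089 without low-weight arrays and 0.053 over numbers 1 to 10. After recovery, numbers 1 to 10 gave 0.070 for Zpbp, 0.015 for Acrbp, -0.0037 for Acrv1 and -0.030 for Spam1. Numbers 11 to 20 gave 0.019 for Acr and -0.0048 for Prss21. The leukocyte covariate gave 0.0057 for Crisp2 and 0.0073 for Acr, and both covariates gave 0.057 for Crisp2, 0.018 for Zpbp, 0.0016 for Acr and 0.0013 for Acrbp. Crisp2 after recovery ran from -0.062 to 0.023 when each array was left out. Over time in corn oil rats, numbers 1 to 10 gave 0.078 for Spam1, and numbers 11 to 20 gave 0.046 for Zpbp2, 0.011 for Acr and 0.0071 for Acrbp. There the leukocyte covariate gave -0.089 for Zpbp, 0.011 for Zpbp2, 0.012 for Acrv1 and 0.19 for Spam1, and both covariates gave -0.064, 0.0030, 0.028 and 0.18 for these 4. Over time in DBCP rats, Zpbp became 0.099 over numbers 1 to 10.

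A comparison of the other probe sets of a gene had no value, since each gene had 1. The plain t statistic and the fit on the groups of a contrast gave no interaction.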
